A study of Homo sapiens with 12 samples.

Results

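The MYC, MAX and MXD network is a set of transcription factors that share DNA sites and binding partners. Its members were taken by gene symbol from the count table of ribosome profiling (Ribo-seq) in HCT116, an epithelial cell line from a human colorectal cancer. All 10 symbols, MYC, MAX, MXD1, MXD3, MXD4, MXI1, MNT, MGA, MLX and MLXIP, were found among the 15798 genes listed. All 10 also passed the filter on low counts, at least 10 counts in at least 3 of the 6 input libraries, which left 10663 genes for testing. MXD3 passed it only through its DMSO libraries.

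The cells received the solvent DMSO or 100 nM trametinib, which blocks the MEK1/2 kinases upstream of ERK, over 24 h. From 3 biological replicates per treatment, input RNA, which reports mRNA abundance, and ribosome protected fragments (RPF), the stretches of mRNA covered by a ribosome, were sequenced as separate libraries. This gave 4 groups of 3 libraries, DMSO input, trametinib input, DMSO RPF and trametinib RPF. All cells were exposed to cycloheximide for 5 min before lysis, and all groups come from a single cell line without a change of genotype.

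MYC binds DNA as a dimer with MAX at the E-box, a short palindromic site, and activates genes of growth, ribosome production and metabolism. MXD1, MXD3, MXD4, MXI1 and MNT also pair with MAX, bind the same site and recruit corepressors, so that they compete with MYC. MGA pairs with MAX inside a Polycomb complex, while MLX pairs with MLXIP (MondoA), a sensor of glucose metabolites. ERK signaling is known to raise MYC transcription and to phosphorylate the MYC protein, which these libraries do not measure.

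Because the E-box, CACGTG, is the site that dimers of the network bind, the promoters of the members were searched for it. RefSeq windows on GRCh38.p14, from 250 bases before to 50 bases after a gene start, were at hand for 9 of the members (14 windows), MYC not being among them. The E-box was found in the windows of MXD4, MNT and MLX, against 7.26% of all 35116 windows. These 3 sequences are shown because they belong to a gene that rose, a gene that was not called and a gene that fell under trametinib. The sequences run 5′ to 3′ on the strand of the gene, with the E-box in capitals. MXD4 lies at chr4:2262060-2262359 (minus strand), MNT at chr17:2401011-2401310 (minus strand) and MLX at chr17:42566850-42567149 (plus strand).
MXD4: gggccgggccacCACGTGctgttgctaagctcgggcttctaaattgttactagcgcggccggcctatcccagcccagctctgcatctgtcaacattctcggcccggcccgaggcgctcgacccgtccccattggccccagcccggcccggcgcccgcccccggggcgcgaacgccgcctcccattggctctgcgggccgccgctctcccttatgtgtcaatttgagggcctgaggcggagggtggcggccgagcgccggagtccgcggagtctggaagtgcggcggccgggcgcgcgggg
MNT: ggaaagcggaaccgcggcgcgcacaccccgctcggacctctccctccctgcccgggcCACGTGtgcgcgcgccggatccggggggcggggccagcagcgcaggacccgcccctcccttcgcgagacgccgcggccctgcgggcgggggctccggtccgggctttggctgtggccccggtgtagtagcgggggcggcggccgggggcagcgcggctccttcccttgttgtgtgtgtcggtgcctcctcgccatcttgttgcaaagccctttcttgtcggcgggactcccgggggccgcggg
MLX: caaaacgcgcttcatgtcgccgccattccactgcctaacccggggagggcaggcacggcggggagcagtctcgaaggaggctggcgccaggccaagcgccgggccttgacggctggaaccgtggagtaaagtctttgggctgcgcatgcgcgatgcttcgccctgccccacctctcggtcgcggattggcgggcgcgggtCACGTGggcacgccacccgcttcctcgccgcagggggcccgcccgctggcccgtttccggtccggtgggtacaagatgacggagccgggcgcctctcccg

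Counted from the gene start, the E-box began at base -238 in MXD4, at -193 in MNT and at -50 in MLX. The FOXO motif GTAAACA, on either strand, was in 3.42% of all windows and, among the members, in 2 of the 3 windows of MXI1, at -151 and at -2. The E2F motifs TTTCGCGC, TTTGGCGC, TTTCCCGC and TTTGCCGC, on either strand, were in 3.31% of all windows and, among the members, in 1 window of MGA at -65. The window of MXI1 with the match nearest to its start, chr10:110225746-110226045 (plus strand), is shown because MXI1 rose in RPF, with the FOXO motif in capitals. A match describes the letters of the window and not binding.
MXI1: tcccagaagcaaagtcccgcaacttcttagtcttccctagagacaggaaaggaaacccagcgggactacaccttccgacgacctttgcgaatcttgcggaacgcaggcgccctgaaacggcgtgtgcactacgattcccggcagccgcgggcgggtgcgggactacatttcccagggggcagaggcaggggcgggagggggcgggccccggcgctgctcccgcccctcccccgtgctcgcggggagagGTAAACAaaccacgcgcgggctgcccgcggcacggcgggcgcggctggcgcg

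Total counts in open reading frames ranged from 2276693 to 2845568 in the input libraries and from 10127477 to 19181588 in the RPF libraries, so the input limits the precision. All 12 genes of a list of ERK pathway output were lower under trametinib in input (median log2 change -4.08), which is given only as a check of the labels. DUSP6, SPRY2, SPRY4, ETV4 and ETV5 passed the filter on low counts only through the DMSO libraries. The 5 epithelial markers summed to between 5004 and 10367 CPM (counts scaled to an equal library size) in input. Under trametinib edgeR called 3 of them higher in input and 4 in RPF, against 15.4% and 23.9% of all tested genes. KRT18 had negative estimates in input (-0.21) and RPF (-0.11) and was called in neither. Of 5 markers of other cell types, PTPRC, PECAM1 and COL1A2 had at most 3 counts in any library, whereas COL1A1 (up to 148 counts) and DES (up to 120) were detected at a low level. DMSO replicate 1 stood apart in both assays. At least 2-fold above both other DMSO libraries were 129 of 7108 genes in input and 218 of 9996 genes in RPF, compared with at most 13 genes in any other library.

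**Figure D1:**
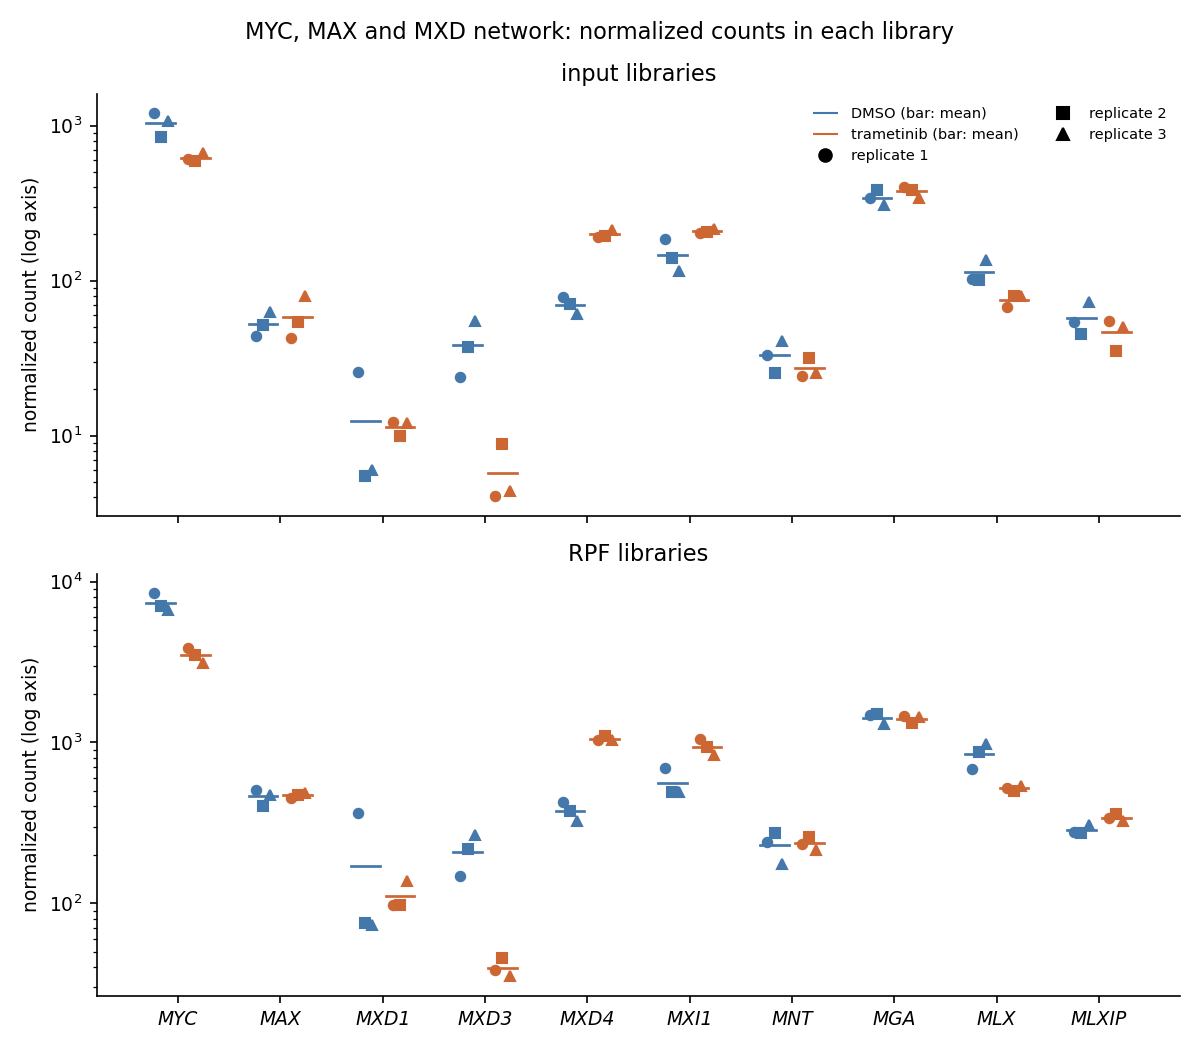
Normalized counts (log axis) of the 10 members in each of the 12 libraries, input above and RPF below; each symbol is 1 library and the bar is the mean of 3. MYC, MXD3 and MLX lie lower and MXD4 and MXI1 lie higher under trametinib without overlap in both assays, while DMSO replicate 1 alone sets the spread of MXD1.

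Trametinib lowered MYC, MXD3 and MLX and raised MXD4 at the level of mRNA, the call of MLX being lost in several alternatives. In RPF the same 4 members changed in the same direction, and MXI1 rose as well. Among the 10 members, edgeR called 1 higher and 3 lower in input at an adjusted p under 0.05, where 15.4% of all tested genes were called higher and 16.8% lower. The 3 lower include MXD3, which passed the filter on low counts only through its DMSO libraries. In RPF, 2 members were called higher and 3 lower, MXD3 again among the lower, against 23.9% and 25.6% of all tested genes. In input the groups did not overlap for 2 members that were higher and 3 that were lower, against 23.5% and 23.2% of all tested genes. In RPF they did not overlap for 3 members that were higher and 3 that were lower, against 29.3% and 30.3%. These counts out of 10 are near the background of a treatment that moved many genes. Counts are relative to the library, so a change shared by all mRNAs is not seen. Values below are normalized counts in the order of replicates 1 to 3, group means are given with their SD (n = 3), and a change is the log2 ratio of trametinib to DMSO, given with its standard error (SE).

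MYC, the growth-promoting activator of the network, lies on chromosome 8. In input it had 1213, 839 and 1069 normalized counts in DMSO and 605, 592 and 668 in trametinib. In RPF it had 8527, 7029 and 6649 in DMSO and 3871, 3513 and 3099.6 in trametinib. All trametinib libraries lay below all DMSO libraries in both assays. The input mean fell from 1040.3 ± 189 to 622 ± 40.4, which is 59.8% of DMSO. The RPF mean fell from 7402 ± 993 to 3494 ± 386, which is 47.2% of DMSO. The change was -0.74 in input (SE 0.16, edgeR adjusted p = 0.00364) and -1.08 in RPF (SE 0.14, edgeR adjusted p = 0.000306).

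MAX (chr14:65006174-65102695 on GRCh38, GENCODE v44, as for the positions that follow), the partner that MYC, MXD, MNT and MGA proteins need to bind DNA, was not called in either assay. Its input counts were 43.9, 51.8 and 62.8 in DMSO and 42.6, 53.9 and 79.2 in trametinib, with overlapping groups. Its RPF counts spanned 403 to 509.6 in DMSO and 450.1 to 486 in trametinib. The 95% interval of its change was -0.41 to 0.70 in input and -0.26 to 0.31 in RPF, so that a change of the size seen for MYC in RPF lies outside both intervals.

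In the MXD family, MXD4 rose and MXD3 fell in both assays, while MXI1 was called in RPF and MXD1 in neither. MXD4 (chr4:2247432-2262109) is a repressor found mainly in differentiating and resting cells. In input it had 78.7, 70.9 and 60.8 normalized counts under DMSO and 191, 195 and 211 under trametinib. In RPF it had 428, 376 and 323 in DMSO against 1043, 1091 and 1035.5 in trametinib. All trametinib libraries were above all DMSO libraries, and the means differed 2.84-fold in input and 2.81-fold in RPF. The change was 1.50 (SE 0.17, edgeR adjusted p = 3.1e-05) in input and 1.49 (SE 0.13, edgeR adjusted p = 2.92e-05) in RPF.

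MXD3 (chr5:177301461-177312757), the family member that is linked to dividing cells, went the opposite way. Its normalized input counts were 23.8, 37.3 and 54.8 under DMSO and 4.06, 8.81 and 4.40 under trametinib, the latter from raw counts of only 4, 8 and 4. In RPF it had 147, 218 and 264 in DMSO and 38.5, 45.6 and 35.0 in trametinib. The groups did not overlap, and the mean in trametinib was 14.9% of DMSO in input and 18.9% in RPF. The change was -2.72 in input (SE 0.42, edgeR adjusted p = 0.000369), with an interval from -3.64 to -1.81, and -2.39 in RPF (SE 0.25, edgeR adjusted p = 9.73e-05). MXD3 passed the filter on low counts only through its DMSO libraries, so its p-values in input and RPF are given as a description.

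MXI1 (chr10:110207605-110287365) is an antagonist of MYC that recruits SIN3 proteins. Its normalized input counts were 185, 140.0 and 115 under DMSO and 203, 207 and 215 under trametinib. In RPF the values were 693, 491 and 489.7 in DMSO and 1050.5, 939 and 834 in trametinib. The groups did not overlap in either assay, with DMSO replicate 1 the highest of its group in both. The increase was called in RPF (0.75, SE 0.16, edgeR adjusted p = 0.00465). In input it missed the threshold narrowly (0.50, SE 0.19, edgeR adjusted p = 0.0545), and without DMSO input replicate 1 it passed (0.71, edgeR adjusted p = 0.00434). Over all alternatives the adjusted p in input ran from 0.00434 to 0.142.

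MXD1 (chr2:69897688-69942945), the founding member of the family, could not be placed, since its value rested on 1 replicate. In input it had 25.6 normalized counts in DMSO replicate 1 and 5.45 and 5.98 in the others, against 12.2, 9.91 and 12.1 in trametinib. In RPF it had 362 in DMSO replicate 1 and 75.4 and 73.7 in the others, against 97.4, 97.3 and 137 in trametinib. Replicate 1 was thus 4.29-fold and 4.80-fold above the next DMSO library. The trametinib libraries lay between the DMSO libraries in both assays. With all libraries the change was -0.13 in input (SE 0.54, edgeR adjusted p = 0.884) and -0.66 in RPF (SE 0.56, edgeR adjusted p = 0.354). Without DMSO replicate 1 both turned positive, to 0.98 in input (SE 0.46, edgeR adjusted p = 0.109) and 0.56 in RPF (SE 0.20, edgeR adjusted p = 0.0306), so that the latter passed the threshold. Over all alternatives the adjusted p in input ran from 0.109 to 0.973, and in RPF it ran from 0.0306 to 0.762.

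MNT (chr17:2384073-2401104), a more widely expressed repressor that pairs with MAX or MLX, had a mean of 33.1 ± 7.70 normalized counts in input under DMSO and 27.2 ± 4.13 under trametinib. Its RPF means were 230.4 ± 50.0 and 236 ± 22.0, with overlapping groups, and neither change was called (edgeR adjusted p = 0.451 and 0.867). MGA (chr15:41621134-41773081), a large protein that also carries a T-box, had 344 ± 38.8 and 377 ± 30.3 in input and 1429 ± 107 and 1406 ± 69.9 in RPF. Its 95% intervals were -0.20 to 0.46 in input and -0.26 to 0.22 in RPF, and its small RPF change of -0.02 was 0.15 when libraries were scaled by their totals. That scaling also moved the median of all genes in RPF from -0.01 to 0.16.

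MLX (chr17:42567072-42573239), which pairs with MLXIP, MNT and MXD4, had 103, 101 and 136 normalized input counts under DMSO and 67.9, 79.25 and 79.2 under trametinib. In RPF it had 685, 868 and 974 in DMSO against 518, 501 and 536 in trametinib. Its groups did not overlap in either assay. The change was -0.58 in input (SE 0.19, edgeR adjusted p = 0.0338) and -0.70 in RPF (SE 0.14, edgeR adjusted p = 0.00339). The input call did not hold without DMSO input replicate 3 (-0.43, edgeR adjusted p = 0.0828) nor without trametinib input replicate 1 (-0.51, 0.131), 2 (-0.62, 0.0861) or 3 (-0.62, 0.0765). Over all alternatives the adjusted p ran from 0.0186 to 0.131.

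MLXIP (chr12:122078756-122147344), the MondoA protein that carries MLX to glucose-responsive genes, was not called in either assay. Its input values overlapped, at 54.0, 45.4 and 72.7 normalized counts in DMSO and 54.8, 35.2 and 50.6 in trametinib. In RPF the groups did not overlap, with 277, 274 and 308 in DMSO and 337, 357 and 327 in trametinib. The RPF change was 0.25 (SE 0.12, edgeR adjusted p = 0.127), and 0.42 with libraries scaled by their totals (edgeR adjusted p = 0.0190, the lowest over all alternatives, which reached 0.311). ARRDC4, a target of MondoA and MLX, was not called either (-0.50 in input, edgeR adjusted p = 0.337), except without DMSO input replicate 3. Without DMSO replicate 1 its estimate turned from -0.50 to 0.22 in input, and in RPF it turned from -0.29 to 0.51. TXNIP, the other target listed, was not analysed here.

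**Figure D2:**
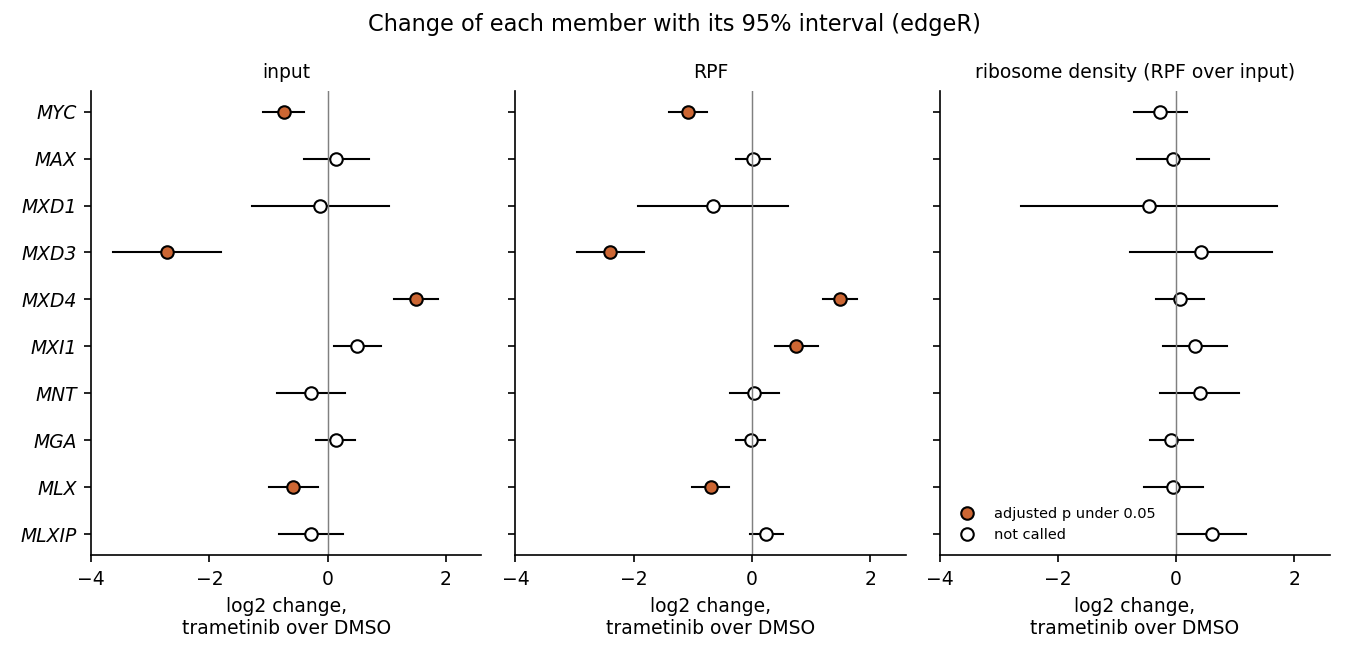
Log2 change of trametinib over DMSO of each member with its 95% interval from edgeR in input, RPF and ribosome density; filled circles passed an adjusted p of 0.05. MXD3 (-2.72 and -2.39) and MXD4 (1.50 and 1.49) lie farthest from 0 in input and RPF, and in ribosome density no circle is filled.

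Ribosome density, RPF relative to input, was compared to ask whether translation of the members changed beyond their mRNA, relative to other mRNAs. Both assays were scaled to the library, so a change in translation shared by all mRNAs is not seen in density. The paper reports a global fall in protein synthesis under trametinib from polysome profiling and puromycin incorporation, which these densities do not measure. None of the 10 members was called by edgeR, where 0.0938% of tested genes were called higher and 0.816% lower. Adding the dish as a term, so that input and RPF of 1 lysate were compared, raised the calls over all genes from 10 higher and 87 lower to 31 and 127 but called no member. DESeq2 called no member either. At an unadjusted p under 0.05 only MLXIP passed among the members, and 939 of the 10663 tested genes did. In simulated counts for this comparison, 55% of 2-fold changes and 99% of 4-fold changes were recovered. The simulation gave all genes the same spread between replicates and had no differences between dishes. Its rates therefore do not hold for members with few counts or a wide spread, such as MXD3 and MXD1.

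For MYC the log2 ratio of RPF to input CPM (TMM-scaled over the 12 libraries) was 0.24, 0.47 and 0.09 in the DMSO dishes and 0.18, 0.06 and -0.27 in the trametinib dishes, which overlap. The change in density was -0.26 (SE 0.21, edgeR adjusted p = 0.819) with a 95% interval from -0.72 to 0.19. The larger fall of MYC in RPF than in input was therefore within the error of the comparison. For MXD4 the interval was -0.34 to 0.48, and for MLX it was -0.54 to 0.45. These intervals come from the model without the dish term.

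MLXIP had ratios of -0.21, 0.0024 and -0.47 in the DMSO dishes and 0.12, 0.84 and 0.21 in the trametinib dishes, which did not overlap. The estimate was 0.61 (SE 0.27), with an edgeR unadjusted p of 0.0403 and an adjusted p of 0.532. With the dish term the adjusted p was 0.312, and over all alternatives it ran from 0.285 to 0.999. MLXIP was the only member whose dishes were all higher, as for 11.7% of all genes with counts in every library. MXD1 was the only one whose dishes were all lower (6.50% of those genes), with an estimate of -0.45 (SE 1.01, edgeR adjusted p = 0.964). MNT (0.40), MXD3 (0.42) and MXI1 (0.32) had positive estimates with intervals that include 0.

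To compare levels between members, normalized counts were divided by the coding length of the canonical transcript of each gene, in kilobases. MYC was the most abundant member in all 4 groups. In DMSO input it stood at 764 normalized counts per kilobase, followed by MXI1 (166), MLX (154), MXD4 (112), MAX (110.1), MXD3 (62.5), MGA (36.8), MLXIP (20.8), MNT (18.9) and MXD1 (18.6). The libraries of MYC did not overlap with those of MXI1, while MXI1 and MLX, MXD4 and MAX, MXD3 and MGA, and the neighbours among the last 3 could not be separated by their ranges. In trametinib input MXD4 (317) and MXI1 (235) followed MYC (457), and MXD3 (9.31) was last, with ranges that overlap those of MNT (15.6).

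In RPF the order in DMSO was MYC (5434 normalized counts per kilobase), MLX (1151), MAX (961), MXI1 (630.3), MXD4 (599), MXD3 (339), MXD1 (257), MGA (153), MNT (132) and MLXIP (104). MLX and MAX overlapped, as did MXI1 and MXD4 and all neighbours from MXD3 down. Under trametinib MXD4 (1685) moved up to follow MYC (2566), with no overlap between them, and MXD3 (64.3) moved to the end. The place of MYC at the top, and those of MAX and MXD3, depend on the length used. With the union of all annotated coding bases, which lengthens MYC from 1362 to 2252 bases, MXD4 was above MYC in trametinib input (317 against 276). In trametinib RPF the ranges of MXD4 and MYC then overlapped (1685 against 1552). In DMSO input with the union length, MAX (54.3) lay below MXD4 (112) without overlap, and MXD3 (33.2) followed MGA (36.8). In DMSO RPF, MAX (474) then followed MXD4 (599) and MXI1 (582).

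**Figure D3:**
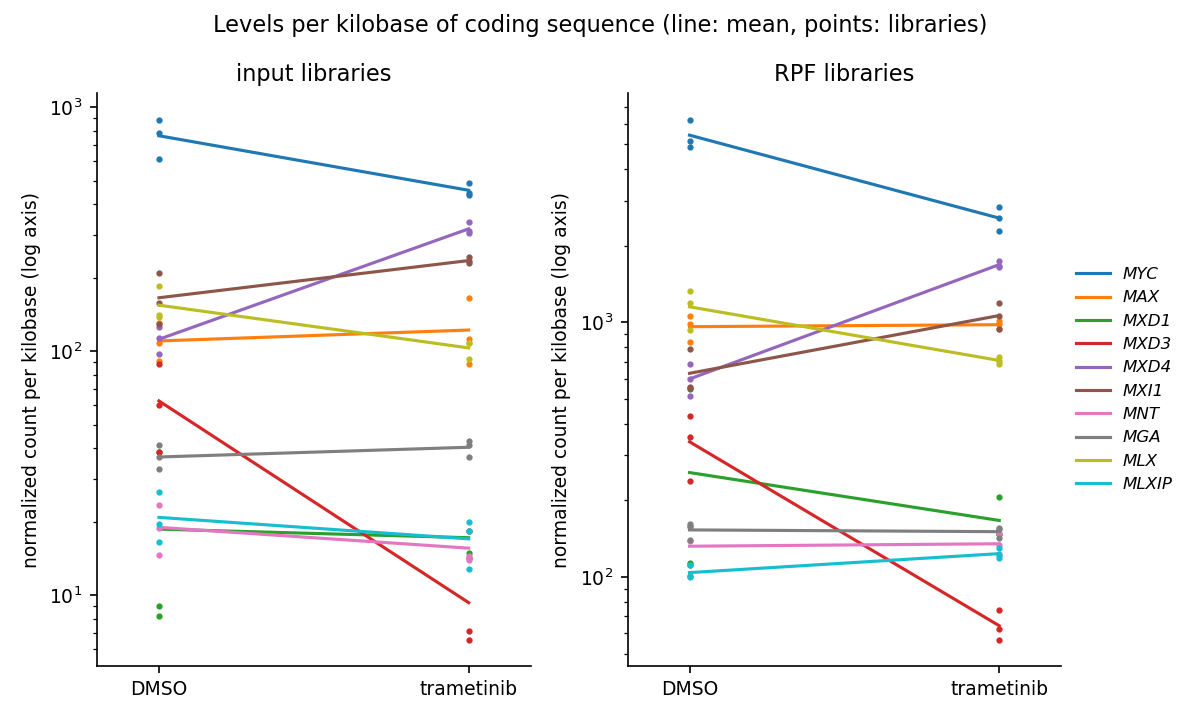
Normalized counts per kilobase of canonical coding sequence (log axis) of each member in DMSO and trametinib, for input on the left and RPF on the right; points are libraries and lines join group means. The line of MXD4 rises in both assays (112 to 317 in input, 599 to 1685 in RPF) and crosses that of MLX, while MXD3 falls to the bottom.

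MYC made up 51.9% ± 3.50 of the summed per-kilobase counts of the 10 members in DMSO input and 34.3% ± 0.932 in trametinib input. In RPF its share was 55.6% ± 2.07 in DMSO and 33.5% ± 2.20 in trametinib. Relative to the sum of MXD1, MXD3, MXD4 and MXI1, MYC stood at 2.13 ± 0.306 in DMSO input and at 0.788 ± 0.0274 in trametinib input. The same ratio was 3.00 ± 0.203 in DMSO RPF and 0.860 ± 0.0662 in trametinib RPF. In every trametinib library the summed family was above MYC, and in every DMSO library it was below. With the union length the ratios were lower, 1.47 and 0.496 in input and 2.07 and 0.540 in RPF. These sums join members whose changes are described above and carry no test of their own.

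The make-up of the MXD family changed along with its sum, from 358 ± 46.7 to 579 ± 23.7 normalized counts per kilobase in input. MXD4 made up 31.2% ± 1.80 of it in DMSO input and 54.8% ± 0.822 in trametinib input. MXD3 fell from 18.2% ± 9.01 to 1.61% ± 0.754, and MXI1 stood at 45.8% ± 5.45 and 40.6% ± 0.496. In RPF, MXD4 was at 33.1% ± 3.42 in DMSO and 56.6% ± 1.93 in trametinib, and MXD3 was at 19.7% ± 8.24 and 2.15% ± 0.251. The share of MXD1 in DMSO RPF ranged from 6.92% to 24.3%, the highest value being that of replicate 1.

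**Figure D4:**
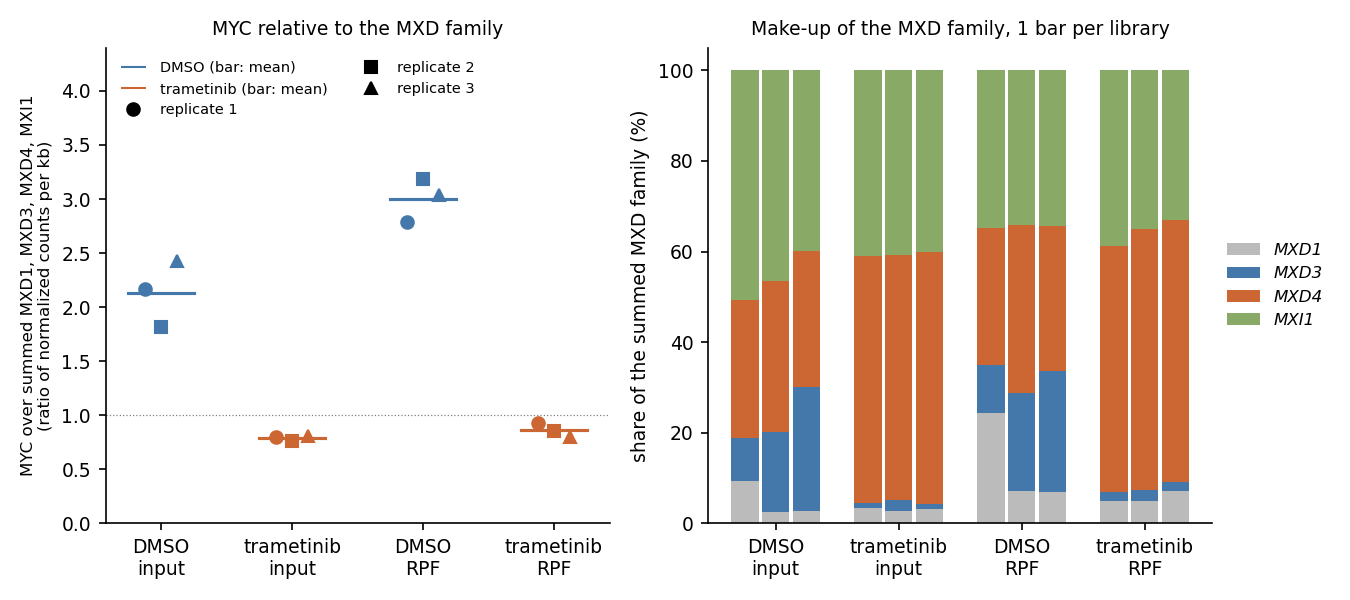
Left, ratio of MYC to the summed MXD1, MXD3, MXD4 and MXI1 (normalized counts per kilobase) in each library, with the group mean as a bar; right, share of each MXD gene in the family sum, in percent, with 1 bar per library. The ratio lies above 1 in all DMSO libraries (1.81 to 3.18) and below 1 in all trametinib libraries (0.758 to 0.929), and MXD4 takes over 50% of the family in each trametinib library.

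The 5 genes whose pattern over the 12 libraries was most like that of MYC were RBM22 (a splicing factor), EWSR1 (an RNA-binding protein), NT5C (a nucleotidase), HK2 (hexokinase 2) and MCPH1 (microcephalin). Likeness was the root mean square difference of log2 CPM centred on the DMSO mean of each assay, and it ran from 0.0974 for RBM22 to 0.122 for MCPH1. HK2 is also on the list of genes activated by MYC. The nearest member, MLX, ranked 585 at 0.325, and MXD4 ranked 10296 at 1.69. These genes were picked for this pattern, so it is given as a description.

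Most genes on a list of those that MYC is known to activate fell. Of 63 genes listed, 60 were tested, and edgeR called 0 higher and 41 lower in input (median log2 change -0.70, against -0.00 over all genes), where 15.4% of all tested genes were called higher and 16.8% lower. Above 0 were the estimates of 3 of them. In RPF 1 was higher and 50 lower (median -0.79), against 23.9% and 25.6% of all tested genes. With 1 library left out, between 29 and 47 were lower in input and between 43 and 55 in RPF, the highest counts being those without DMSO replicate 1. PLK1, a mitotic kinase, fell from 554 ± 55.3 to 24.6 ± 4.95 normalized input counts (-4.48, SE 0.20, edgeR adjusted p = 3.31e-08). PLK4, a kinase of centriole duplication, changed by -2.88 (SE 0.26, edgeR adjusted p = 3.42e-06), and MCM5, a subunit of the replicative helicase, by -2.14 (SE 0.25, edgeR adjusted p = 3.74e-05). TCOF1, a nucleolar protein of ribosomal RNA transcription, changed by -1.99 (SE 0.23, edgeR adjusted p = 2.91e-05).

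In ribosome density 1 of the 60 tested genes of that list was called lower and 0 higher, near the 0.816% and 0.0938% of all tested genes. The gene called lower was FBL (fibrillarin, a nucleolar methyltransferase). The 1 gene called higher in RPF was MAP3K6, against 23.9% of all tested genes. Both were named after their values were seen. FBL was at 457 ± 46.7 and 397 ± 26.7 in input, while its RPF mean was 5118 in DMSO and 2034 in trametinib. Its change in density was -1.05 (SE 0.18, edgeR adjusted p = 0.00883), a call that was lost when both libraries of any 1 trametinib dish were left out. MAP3K6 changed by 0.52 in RPF (SE 0.19, edgeR adjusted p = 0.0462), a call that was lost without DMSO RPF replicate 3 and without any 1 trametinib RPF replicate.

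Of 10 corepressors that MXD and MNT proteins recruit, edgeR called 1 higher and 1 lower in input, near the 15.4% and 16.8% of all tested genes. In RPF 2 were higher and 1 lower, against 23.9% and 25.6% of all tested genes, and the medians were 0.02 in input and -0.02 in RPF. SAP30, a subunit of the SIN3 complex, fell from 27.7 ± 5.02 to 12.2 ± 4.20 normalized input counts (-1.18, SE 0.32, edgeR adjusted p = 0.0140). HDAC1, a histone deacetylase of the complex, rose from 976 ± 70.3 to 1295 ± 88.6 (0.41, SE 0.14, edgeR adjusted p = 0.0369). However, 0 genes of the list were higher without DMSO input replicate 1 and without any 1 of the trametinib input replicates. Between 0 and 3 were lower when 1 library was left out, and 0 without trametinib input replicate 1.

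Among 12 cofactors of MYC, 5 were lower and 0 were higher in input (median -0.41), against 16.8% and 15.4% of all tested genes. In RPF 4 were lower (median -0.27), close to the 25.6% of all tested genes. At an estimate above 0 stood 1 of the 12 in input, and between 4 and 7 were lower when 1 library was left out, 7 without DMSO input replicate 1. WDR5, which helps MYC to find chromatin, fell from 201 ± 7.61 to 97.9 ± 7.88 normalized input counts (-1.03, SE 0.16, edgeR adjusted p = 0.000352). The helicases RUVBL1 and RUVBL2 changed by -0.79 and -0.71 in input (edgeR adjusted p = 0.00126 and 0.00543).

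Of 13 genes that control the stability of the MYC protein, 5 were lower and 1 was higher in input (median -0.55), against 16.8% and 15.4% of all tested genes. In RPF 5 were lower and 2 higher (median -0.44), against 25.6% and 23.9%. AURKA, a mitotic kinase that shields MYC proteins from degradation, fell from 226 ± 30.0 to 26.2 ± 6.87 normalized input counts (-3.10, SE 0.22, edgeR adjusted p = 4.79e-07). CIP2A, an inhibitor of the phosphatase PP2A, fell from 188 ± 33.2 to 24.8 ± 6.38 (-2.91, SE 0.23, edgeR adjusted p = 1.29e-06). The deubiquitinases USP7 and USP28 changed by -0.70 and -0.62 in input (edgeR adjusted p = 0.00467 and 0.0215). The gene that rose was PPP2R5A, a regulatory subunit of PP2A (0.50, SE 0.17, edgeR adjusted p = 0.0444), which was joined in RPF by the kinase GSK3B (0.32, SE 0.11, edgeR adjusted p = 0.0403); both were named after their values were seen. With 1 library left out, no gene of this list was higher in input except without DMSO input replicate 1, and between 3 and 6 were lower. Between 3 (without trametinib RPF replicate 1) and 8 (without DMSO RPF replicate 1) were lower in RPF. With libraries scaled by their totals, 3 were higher and 2 lower in RPF.

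MGA acts in the Polycomb complex PRC1.6, of which 10 further components were listed, WDR5, HDAC2 and CBX3 being shared with lists above. In input 4 were lower and 1 was higher (median -0.42), against 16.8% and 15.4% of all tested genes. In RPF 3 were lower (median -0.17), near the 25.6% of all tested genes. PCGF6, the subunit that defines the complex, fell from 89.5 ± 2.69 to 43.5 ± 8.87 normalized input counts (-1.04, SE 0.21, edgeR adjusted p = 0.00227). TFDP1, a dimer partner of E2F proteins, changed by -0.78 (SE 0.17, edgeR adjusted p = 0.00418). RING1, a ubiquitin ligase, rose from 61.3 ± 4.83 to 99.6 ± 3.77 (0.70, SE 0.18, edgeR adjusted p = 0.00985), with 532 and 564 in DMSO and trametinib RPF. In RPF the list had 2 lower without any 1 library other than DMSO RPF replicate 1, and 2 higher and 4 lower without that one.

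**Figure D5:**
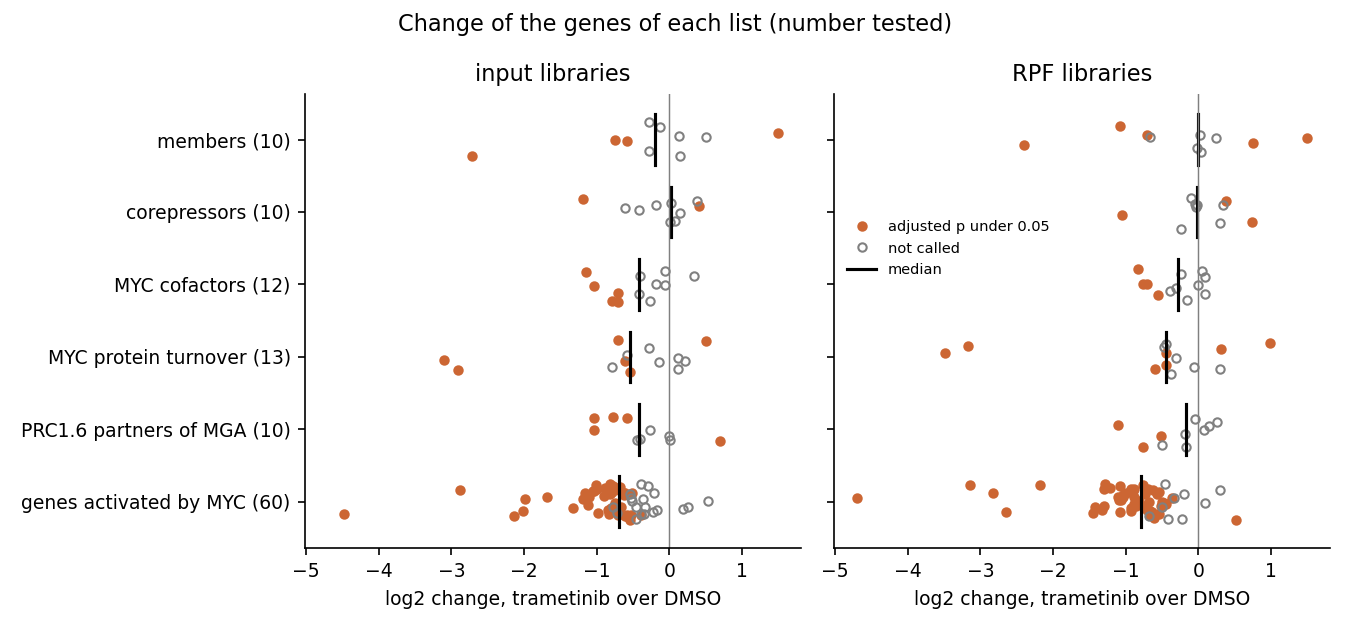
Log2 change of trametinib over DMSO of each tested gene in the members and 5 further lists, for input on the left and RPF on the right; filled points passed an adjusted p of 0.05 in edgeR and the vertical bar is the median of the list. The medians run from -0.70 for genes activated by MYC to 0.02 for corepressors in input, and the members spread to both sides of 0.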

How the data were processed

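The study measured Ribo-seq input and RPF libraries of HCT116 cells, 12 in all, grouped by the sample labels. According to its methods, the authors trimmed adapters, removed rRNA and tRNA reads with Bowtie 1.2.2, mapped 25 to 35 nt reads to Gencode transcripts and counted those inside reading frames of a single gene symbol. The table deposited by the authors holds raw counts per gene and library. It also holds a signal deposited by the authors for each library, the count times a constant (DESeq2 1.46.0 size factors), and their fold changes and adjusted p-values, which were not used.

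From the raw counts, edgeR 4.0.16 (R 4.3.3, TMM, quasi-likelihood, two-sided) tested input, RPF and their interaction with treatment, the ribosome density. The filter on low counts used the input libraries, p-values were adjusted by Benjamini-Hochberg over all 10663, and an adjusted p under 0.05 was called. Normalized counts are counts over the TMM-scaled library size, times the mean size of the assay. Coding lengths came from GENCODE v44 on GRCh38. With 3 libraries per group the spread is estimated across genes. The members, lists and tests were chosen with earlier results of these data known. Genes named from lists were those called in input or density, at most 4 per list by the smallest p in input. PHB1 was matched as PHB, and IPO4 was not analysed here. For 1 gene of the lists, values are not reported here. On simulated counts of 10663 genes with the same spread for all genes, 81% of 2-fold changes were recovered in input and 95% in RPF.

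Alternatives were other normalizations and filters, DESeq2 1.42.0, limma-trend 3.58.1 (prior count 2), replicate blocks and leaving out libraries. The methods take input RNA from the lysate that was digested, so libraries of 1 treatment and number were read as 1 dish. Deviations from group means (8419 genes) correlated within a dish at 0.801, 0.187 and 0.347 for DMSO, and for trametinib at 0.145, 0.0726 and -0.112. Between treatments, libraries of the same number correlated at 0.0734, 0.0643 and 0.314 in input and at 0.109, 0.128 and 0.288 in RPF.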

Additional observations from a re-analysis of the deposited data

How the results depend on the processing

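The calls of MYC, MXD3 and MXD4 in input and RPF, and of MXI1 and MLX in RPF, held, with the same sign, under all alternatives run. Those of MXD3, which passed the filter on low counts only through its DMSO libraries, are given as a description here too. For the 10 members over all alternatives, 118 of 130 values kept both sign and call in input, 120 of 130 in RPF and 242 of 260 in ribosome density. The MLX call in input was lost with DESeq2 (adjusted p = 0.0604) and MXI1 was gained with library totals, limma-trend and the replicate block (adjusted p = 0.0475, 0.0438 and 0.0231), which made 2 members higher in input. The replicate block changed no other call of a member. Over all genes, it gave 1959 higher and 2053 lower in input, 2559 and 2725 in RPF, and 11 and 91 in density.

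In density, the genes called higher numbered 5 with median-of-ratios size factors, 27 with library totals, 6 with the filter on either kind, 37 with DESeq2 (150 lower) and 31 with the replicate block by dish. With both libraries of a dish left out, an alternative chosen after seeing the data, they were 21 and 3 without DMSO dishes 1 and 2, and 0, 0 and 2 without trametinib dishes 1, 2 and 3, when 2, 2 and 42 were lower. In RPF, library totals changed the split over all genes from 2545 higher and 2727 lower to 3577 and 1944. Leaving out 1 library gave 1069 to 1767 genes higher in input, with 1 to 2 members among them, and 1 to 12 higher and 49 to 101 lower in density.

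Values of uncalled members that changed sign were MXD1 in input with limma-trend (0.18), MGA in RPF with library totals (0.15), and, in density, MAX, MGA and MLX with library totals (0.061, 0.027 and 0.062), MXD4 with median-of-ratios size factors (-0.0032) and DESeq2 (-0.0020), MAX without DMSO dish 1 (0.12) and trametinib dish 3 (0.17), and MLX without DMSO dish 2 (0.043) and trametinib dish 2 (0.022). Leaving out 1 library moved MAX from -0.13 to 0.34 and MXD1 from -0.49 to 0.98 in input; MAX from -0.056 to 0.10, MXD1 from -1.03 to 0.56, MNT from -0.11 to 0.19 and MGA from -0.071 to 0.022 in RPF; and MAX from -0.27 to 0.18, MXD1 from -1.58 to 0.76, MXD4 from -0.026 to 0.18 and MLX from -0.23 to 0.088 in density. On CPM of the library total, the ratio of trametinib to DMSO moved by more than the spread for MAX (1.15), MGA (1.11) and MLXIP (1.34) in RPF, and by less for the other 17 values. Adjusted p-values of DESeq2 for MXD1 and MXD3 in density were not given. The causes of these changes were not tested.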

Other observations

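The other proteins of the extended network, MYCN, MYCL and MLXIPL, are paralogs of MYC and MLXIP. MYCN had at most 2 counts in any library and was not tested. MYCL had 44 raw counts in DMSO input replicate 1 and 12 and 14 in the others, against 15, 11 and 9 in trametinib, so that only DMSO replicate 1 stood above the trametinib libraries. Its change was -0.80 in input (SE 0.47, edgeR adjusted p = 0.217) and -0.83 in RPF (SE 0.37, edgeR adjusted p = 0.0916). Without DMSO RPF replicate 3, MYCL was called lower in RPF. MLXIPL (ChREBP), a partner of MLX, had 39, 26 and 17 counts in DMSO input and 33, 27 and 43 in trametinib, a change of 0.52 (SE 0.31, edgeR adjusted p = 0.211). Without DMSO input replicate 1, MLXIPL was called higher in input, and without DMSO RPF replicate 1 in RPF.

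ARRDC4, the target of MondoA and MLX, spread more widely among the DMSO replicates than among the trametinib replicates. It had 119, 54.8 and 31.0 CPM in DMSO input, in the order of replicates 1 to 3, and 41.2, 54.5 and 51.4 CPM in trametinib. In RPF it had 104, 46.2 and 22.5 CPM in DMSO and 54.2, 49.4 and 56.4 CPM in trametinib. MYC, MXD1, MXD4, MXI1, MYCL and MLXIPL were likewise highest among DMSO libraries in replicate 1 in both assays, and MXD3 was lowest there. What sets this replicate apart was not tested.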
